A study of Mus musculus with 9 samples.

Results

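RNA that came down with a control IgG was compared with the RNA of the lysate it was taken from (Input), in whole healthy liver of 8-week-old C57BL/6 WT mice. The series sought the RNAs that HuR, an RNA-binding protein encoded by Elavl1, targets in mouse liver, and the IgG pull-downs (RNA immunoprecipitation, RIP) are its control arm. No group carried a transgene, a deletion or a treatment. Per the labels, 3 IgG RIP libraries, 3 HuR RIP libraries and 3 Input libraries were made, and each pull-down used native lysate of a single liver homogenised in cold buffered saline and lysed at low salt. The deposited table gives each pull-down its own column and holds Input as 1 mean column, so no difference from Input has a replicate on both sides and none was tested. Nothing in the labels names the animals beyond 1 liver per pull-down, and n = 3 libraries throughout. The column names end in M for numbers 1 and 2 and in F for number 3, and their meaning is not given. If the letters mark sex, HuR 2 and HuR 3 go against them: Xist, of the inactive X, stood at 10.2 and 0.46 RPKM, and Ddx3y, on the Y, at 0.02 and 2.04. The authors' fold columns also hold these libraries in exchanged order, so which is HuR 2 and which HuR 3 is uncertain; the names of the RPKM columns were followed.

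A control IgG binds no chosen target, so the RNA it brings down reflects what sticks to antibody and beads and what stays behind after washing. Liver lysate holds abundant cytoplasmic messengers of secreted proteins, and also nuclear RNA: small nucleolar RNAs (snoRNAs) that guide chemical modification of ribosomal RNA, small Cajal body RNAs (scaRNAs) that do so for the spliceosome's small nuclear RNAs (snRNAs), and ribosomal RNA precursors that still hold spacers. In whole tissue, fewer cells of a type and less RNA per cell cannot be told apart.

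All genes of the table were members of the comparison, and 25146 of 33732 gene names were above 0 in an IgG library or in Input. Levels are RPKM, in which reads are divided by exon length and by library size. Ratios are log2((RPKM + 0.5)/(Input RPKM + 0.5)) per library, for genes whose IgG mean and Input averaged 1 RPKM or more, which left 2219. A gene was called carried over when it was at least 2-fold above Input in all 3 IgG libraries, and lost when it was at least 2-fold below Input in all 3. Of the 2219 genes, 458 (20.6%) were carried over and 32 (1.44%) were lost. The filter also lets in genes that only IgG raises: of 1740 genes with Input itself at 1 RPKM or more, 325 were carried over and 32 were lost. Without IgG 2 the carried-over count was 727, and without IgG 1 the lost count was 142. With every library rescaled to leave out the ribosomal repeat, 443 genes were carried over and 486 lost, as the median log2 ratio of protein-coding genes moved from 0.20 to -0.45.

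The libraries behind the values held 15.9 M, 26.7 M and 28.8 M reads (M, mega) for IgG 1, 2 and 3, recovered from the step of 1 read in the values. Between 44.3% and 54.0% of those reads lay in listed exons, and the Input depth is unknown. Of the 3 libraries, IgG 1 stood apart by its lower share of ribosomal RNA and higher share of small nuclear and nucleolar RNA. Read counts give counting error only, since reads are not independent molecules.

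Named small RNAs with large carry-over are shown first, because their kind recurs through the results. Snora24, Snora21 and Snord16a had the largest mean log2 ratios among named small RNAs (some predicted U2 copies lay higher), and Scarna9 is shown as a scaRNA. H/ACA snoRNAs guide pseudouridylation and end in an ACA box, which stands in capitals. C/D snoRNAs guide 2'-O-methylation and carry a TGATGA box near the start and a CTGA box near the end, in capitals where those exact letters were found. Sequences and positions are those of GENCODE M21 on GRCm38, read 5′ to 3′. U3 (Rnu3b1), which pairs with the ribosomal RNA precursor, was added after its values were seen.
Snora24, chr3:123507937-123508066, minus strand: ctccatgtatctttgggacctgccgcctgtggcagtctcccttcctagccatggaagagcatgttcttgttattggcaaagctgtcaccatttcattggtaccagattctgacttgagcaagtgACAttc
Snora21, chr11:97781639-97781775, minus strand: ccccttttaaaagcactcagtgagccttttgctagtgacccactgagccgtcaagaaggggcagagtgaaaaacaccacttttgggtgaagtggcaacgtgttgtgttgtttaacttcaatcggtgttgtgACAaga
Snord16a, chr9:64175423-64175521, plus strand: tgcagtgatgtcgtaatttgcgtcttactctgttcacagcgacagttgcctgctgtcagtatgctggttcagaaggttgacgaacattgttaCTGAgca
Scarna9, chr9:15326264-15326333, minus strand: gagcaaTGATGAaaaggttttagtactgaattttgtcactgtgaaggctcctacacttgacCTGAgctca
Rnu3b1, chr11:87443237-87443452, plus strand: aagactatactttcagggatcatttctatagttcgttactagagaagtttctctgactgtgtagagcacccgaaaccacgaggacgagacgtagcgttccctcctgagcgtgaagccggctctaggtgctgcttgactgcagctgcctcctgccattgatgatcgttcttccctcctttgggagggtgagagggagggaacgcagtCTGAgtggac

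RNA of the nucleolus and of the spliceosome gave the largest groups of carried-over genes. SnoRNAs, scaRNAs and snRNAs together were 0.673% of the listed signal in Input and 30.9%, 5.17% and 11.6% of it in IgG 1, 2 and 3. All 3 IgG libraries lay above Input, and IgG 1 lay furthest above it. C/D snoRNAs were 10.1%, 2.25% and 3.0% of the signal against 0.295% in Input, which is 34.3, 7.63 and 10.2 times as much. H/ACA snoRNAs were 3.28%, 0.548% and 0.372% against 0.034%, or 97.5, 16.3 and 11.1 times. The scaRNAs were 0.332%, 0.068% and 0.068% against 0.011%.

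Most snoRNA genes moved together. Of the 84 named C/D snoRNA genes past the filter 74 were carried over and 0 lost, and of the 39 H/ACA genes 36 were carried over and 0 lost, beside 20.6% of all genes. Another 182 snoRNA genes have no family name, and 120 of them were carried over and 1 lost. Over all 305 snoRNA genes the median log2 ratio was 5.84, 2.77 and 2.41 in IgG 1, 2 and 3, against 1.25, -0.11 and 0.41 over all genes past the filter. The count of 230 carried-over snoRNA genes came to 225, 239 and 273 without IgG 1, 2 and 3, and to 218 without the ribosomal repeat in the scaling. Of the 23 scaRNA genes 10 were carried over.

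**Figure D1:**
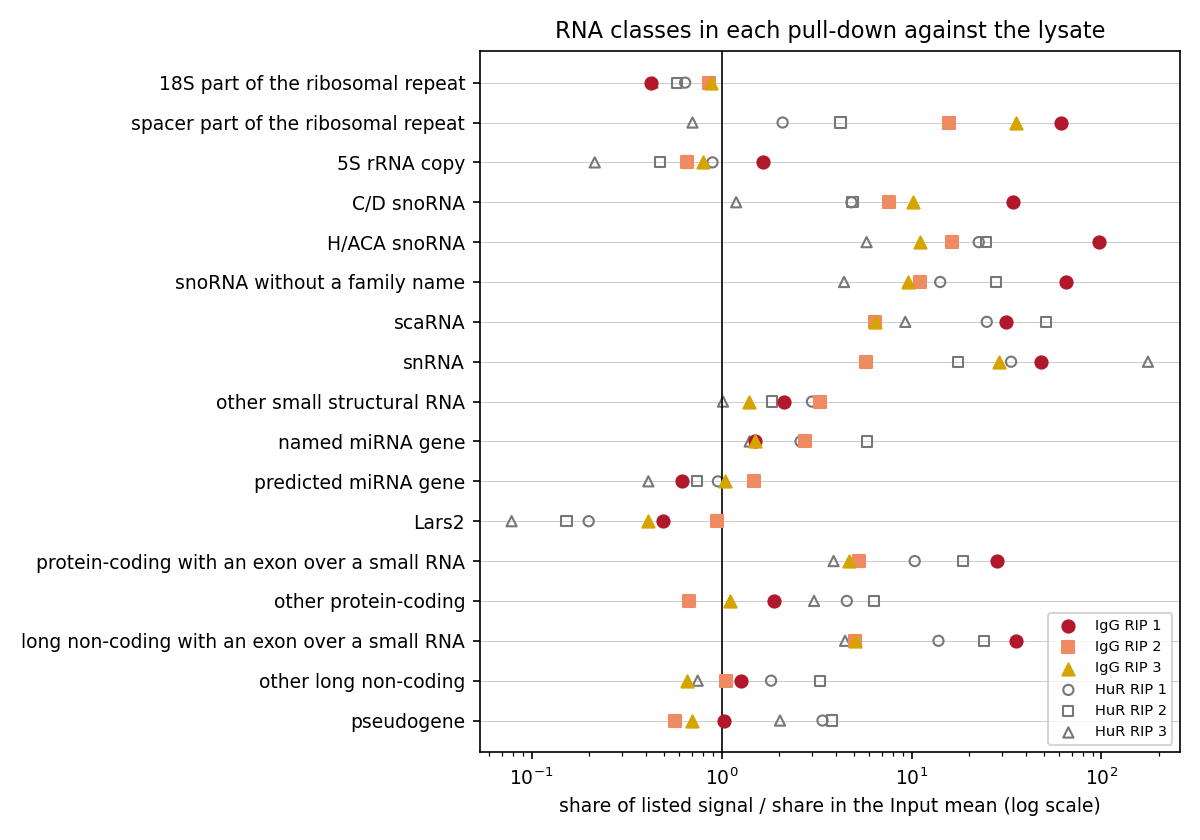
Share of the listed exon signal taken by each RNA class in each pull-down, divided by its share in the Input mean (log axis, 1 means equal; 1 point per library, filled for IgG RIP and open for HuR RIP). SnoRNA, scaRNA and snRNA classes and the ribosomal spacer lie to the right of 1 in every IgG library, while 18S lies to its left.

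Snora24 stood at 2923, 336 and 257 RPKM in IgG 1, 2 and 3 against 10.1 in Input, log2 ratios of 8.11, 4.99 and 4.60. These rest on 6024, 1165 and 962 reads, where a library with Input's composition would have given 20.8 reads in IgG 1. Snora21 stood at 8459, 1333 and 579 RPKM against 37.8 in Input. IgG 1 was the highest library for both H/ACA snoRNAs, and the lowest IgG library was still far above Input. The C/D snoRNA Snord16a reached 1138, 125 and 105 RPKM against 4.98. Scarna9, with the clearest pair of boxes above, reached 194, 9.65 and 48.1 RPKM against 0.69, so its lowest library was IgG 2.

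RNAs that act on the ribosomal RNA precursor itself were among those carried over. U3 is needed for the cuts that free 18S, and Rnu3b1 stood at 29268, 7551 and 11982 RPKM against 1025 in Input. Snord118, the U8 RNA needed for maturation of 5.8S and 28S, stood at 4647, 589 and 677 RPKM against 93.4. Every IgG library lay above Input for both. Rmrp, the RNA of the RNase MRP particle that cuts within the precursor, stood at 11860.5, 2517 and 1467 RPKM against 258. Rmrp lies over an exon of Ccdc107 on the opposite strand, and the counting appears blind to strand, so reads of the pair cannot be told apart. Rpph1, the RNA of the related RNase P that trims transfer RNA, stood at 655, 283 and 292 RPKM against 154. Rpph1 lay below 2-fold in IgG 2 and IgG 3 and was not called.

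The ribosomal repeat split in the same libraries. Mature 18S, the exon CT010467.1 at chr17:39846353-39848201, stood at 48094, 70493 and 79538 RPKM against 83134 in Input, so all 3 IgG libraries lay below Input, at 0.579, 0.848 and 0.957 of it. RefSeq places Rn18s-rs5 1 base along, at chr17:39846354-39848202. The stretch just upstream, annotated as Gm26917 (exon chr17:39843013-39846341), is precursor RNA that processing removes, and it stood at 4676, 970.2 and 2290 RPKM against 66.9. That is 69.9, 14.5 and 34.2 times Input. Downstream of 18S, the exon at chr17:39848639-39848827 stood at 877, 271 and 887 RPKM against 41.9, also above Input in each library. The exon between, chr17:39848135-39848596, which starts within 18S, was at 2.15, 0.505 and 2.06 times Input, so it lay below Input in IgG 2.

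As a share of the 18S exon, the upstream stretch was 9.72%, 1.38% and 2.88% in IgG 1, 2 and 3 and 0.08% in Input. It was 0.262%, 0.483% and 0.103% in HuR 1, 2 and 3, so the IgG and HuR libraries did not overlap. This ratio within a library is independent of scaling. It was looked at after its values had been seen, and no p is given for it. The 5S ribosomal RNA, transcribed from its own genes outside the repeat, did not share this pattern: its share was 4.79%, 1.90% and 2.32% against 2.89% in Input, and 3 of 109 gene copies were carried over.

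**Figure D2:**
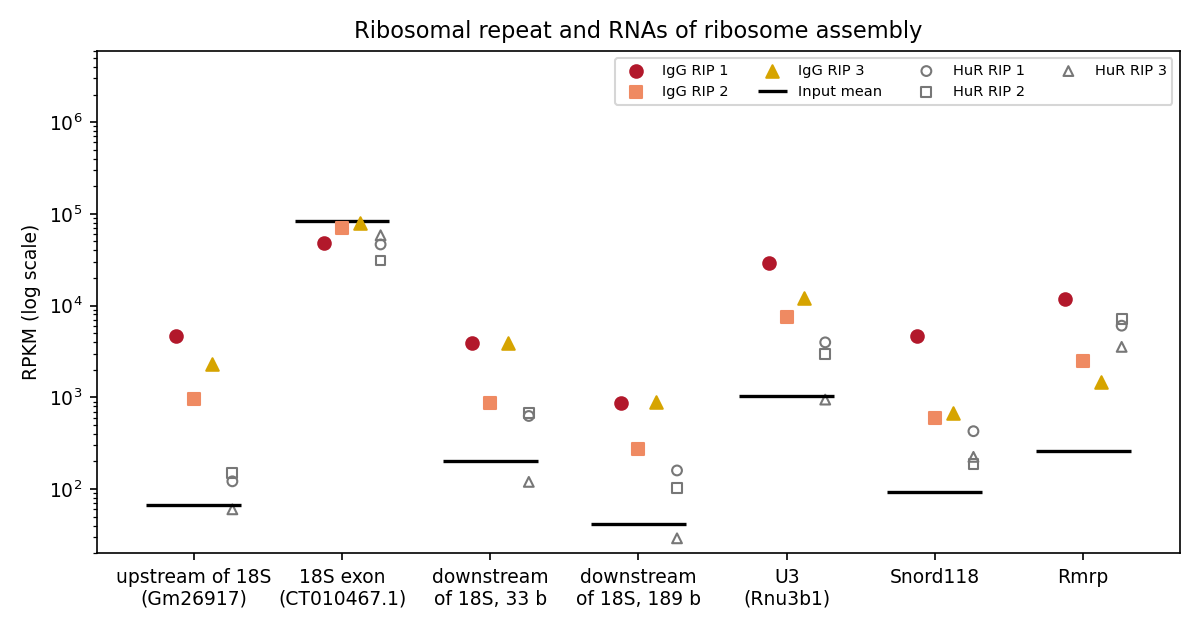
RPKM (log axis) of the exons of the ribosomal repeat and of 3 RNAs of ribosome assembly, in each IgG library (filled), each HuR library (open) and the Input mean (black line). The spacer exons, U3, Snord118 and Rmrp lie above the line in every IgG library, and the 18S exon lies below it.

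Spliceosomal RNA was carried over with more spread among libraries. The snRNAs are the RNA core of the spliceosome, and their share was 12.5%, 1.51% and 7.51% in IgG 1, 2 and 3 against 0.261% in Input. Of the 103 snRNA genes past the filter 68 were carried over and 0 lost. Genes were placed in families by their words of 8 bases, at least 50% shared with a named snRNA. For U1, which marks the 5′ splice site, 32 of 37 genes past the filter were carried over, and the family's share was 24.3, 5.10 and 25.3 times that in Input. For U2, which pairs with the branch site, 12 of 13 were carried over, at 164, 9.84 and 57.3 times. For U6, which is at the catalytic centre, 2 of 12 genes past the filter were carried over, near the 20.6% of all genes. The family's share was 3.55, 1.04 and 3.64 times that in Input. Only 12 of 221 U6 genes passed the filter, and the highest level among them was 1.18 RPKM in Input and 7.07 in IgG. The family held 0.00077% of the Input signal, against 0.190% for U1. At so few reads U6 cannot be compared with U1 and U2.

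Near-identical copies share reads, so single snRNA genes are uncertain. The U2 gene Rnu2-10 stood at 27899, 1217 and 1463 RPKM against 135 in Input. The U1 gene Rnu1a1 stood at 11097, 2220.0 and 9357 RPKM against 401. IgG 1 was highest for both, and IgG 3 came near it for U1 only. In HuR 3 snRNAs took 45.9% of the signal, above every IgG library, so snRNA did not separate IgG from HuR pull-downs.

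Other abundant small RNAs were less raised. Rn7s1 is a gene for 7SL, the RNA of the signal recognition particle that docks ribosomes making secreted proteins, and it stood at 15924, 26737 and 10666 RPKM against 8294 in Input. It was above Input in each library, and IgG 2, the lowest library for snoRNA, was the highest here. Rn7sk, which holds a transcription elongation factor inactive, stood at 1270.3, 216 and 745 RPKM against 341. The Y RNA Rny3, a partner of the Ro autoantigen, stood at 16.1, 6.62 and 20.4 RPKM against 18.8. IgG 2 was below Input for both. Of 27 genes in the class of other small structural RNAs, 3 were carried over.

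MicroRNA genes were carried over at a lower level than snoRNAs and more evenly. MicroRNAs are cut from hairpins and work as RNAs of about the length printed here, bound to Argonaute. Of 116 named microRNA genes past the filter 53 (45.7%) were carried over and 2 (1.72%) lost, beside 20.6% and 1.44% of all genes. The filter let in genes that only IgG raised. With Input itself at 1 RPKM or more, 24 of 68 (35.3%) were carried over, beside 18.7% of all such genes. As 8 of them lie over a small RNA gene of another class, the 108 others were described alone. Of these, 49 (45.4%) were carried over, 2 lost, and the median log2 ratios were 1.91, 1.78 and 1.57. Overlap of microRNA genes with each other was not checked. Mir451a and Mir451b, both among the 49, had the same values, so their reads cannot be told apart. Among the 49, medians were 3.03, 2.59 and 2.72 and the median SD over libraries was 0.56. For the 230 carried-over snoRNA genes that SD was 1.83, with medians of 6.07, 2.96 and 2.95. Both sets had to pass the same rule, so the SDs describe them and were not tested.

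Mature sequences encoded by carried-over microRNA genes, from RefSeq on GRCm38, show which families recur among these genes. Levels were counted over the whole gene, so mature microRNA and its hairpin precursor cannot be told apart. Of the 49 genes 42 had a mature entry, and 8 seeds (bases 2 to 8, in capitals) were shared by at least 2 genes among the listed entries. Some genes, such as Mirlet7a-2 and Mir23b, had only 1 arm listed, so seeds of arms not listed were not counted. These examples were chosen after their values were seen, for even levels across the libraries or for a shared seed.
miR-30a-5p (Mir30a): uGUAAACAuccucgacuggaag
miR-30c-5p (Mir30c-1, Mir30c-2): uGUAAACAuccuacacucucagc
miR-126a-3p (Mir126a): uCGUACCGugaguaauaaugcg
miR-203-3p (Mir203): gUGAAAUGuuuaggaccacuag
miR-192-5p (Mir192): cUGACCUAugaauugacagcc
miR-27a-3p (Mir27a): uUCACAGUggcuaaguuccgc
miR-27b-3p (Mir27b): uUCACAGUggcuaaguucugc
miR-29a-3p (Mir29a): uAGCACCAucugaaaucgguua
miR-15a-5p (Mir15a): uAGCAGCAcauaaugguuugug
miR-16-5p (Mir16-1): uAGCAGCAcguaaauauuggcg

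The hepatocyte's most abundant microRNA gene, Mir122, stood at 527, 511 and 588 RPKM in IgG 1, 2 and 3 against 64.6 in Input, log2 ratios of 3.02, 2.97 and 3.17. The 3 libraries differed from each other far less than each did from Input. Mir30a stood at 19.5, 19.6 and 22 RPKM against 1.72, from 22, 37 and 45 reads. Mir126a, of endothelial cells, stood at 55.6, 46.9 and 58.3 RPKM against 4.92. Mir126b overlaps it on the opposite strand and stood at 69.6, 59.1 and 73.4 against 6.19, so their reads cannot be told apart. Mir192, abundant in liver and gut, spread more widely, at 84.3, 55.2 and 142 RPKM against 11.1. Mir203 shows how few reads lie behind the lower levels: 7.47, 7.40 and 7.30 RPKM against 0.47 rest on 9, 15 and 16 reads.

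Genes listed with a seed in common had mean log2 ratios from 1.54 to 2.35 for the 4 let-7 genes listed with GAGGUAG. For Mir15a, Mir16-1 and Mir195a with AGCAGCA they were from 1.65 to 2.52. The range was wider for Mir30a, Mir30c-1 and Mir30c-2 with GUAAACA, from 1.52 to 3.23, and for Mir26a-1 and Mir26a-2 with UCAAGUA, from 2.21 to 3.41. Families were counted among carried-over genes only. Mir27a stood at 11.8, 5.03 and 4.78 RPKM and was listed at 0 in Input.

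The named microRNA genes divide by number. There were 85 numbered under 1000 or named let-7 and clear of small RNAs of other classes. Of these, 48 (56.5%, beside 20.6% of all genes) were carried over and 0 lost, with medians of 2.10, 2.13 and 1.80. Of 23 numbered 1000 or above, 1 was carried over and 2 lost. The 1 was Mir3068, at 1084, 94.2 and 49.6 RPKM against 4.61, with IgG 1 far above the others as for snoRNAs. Mir664 lies over Snora36b and stood at 2138, 259 and 143 RPKM against 10.6, so its reads and those of the snoRNA cannot be told apart. Mir6236 took a large signal without being called, at 9545, 21809 and 11586 RPKM against 8256. Depth limits the class. Of the 63 carried-over genes annotated as microRNAs, named or predicted, 26 had at least 10 reads in every IgG library. For C/D snoRNAs this was 71 of 74. Only 29 of the 63 had Input at 1 RPKM or more. The annotation also places Snord43, by its name a C/D snoRNA, among the predicted genes of the 63. With the filter at 5 RPKM, 16 of the 49 genes clear of small RNAs of other classes were still counted.

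On the deposited RPKM scale, protein-coding genes as a whole stayed near Input, and in a different order of libraries than the small RNAs. Of 1078 protein-coding genes past the filter 38 (beside 20.6% of all genes) were carried over and 9 (beside 1.44%) lost. Their median log2 ratio was 0.97, -0.45 and 0.07 in IgG 1, 2 and 3, a mean of 0.20 ± 0.71 (SD, n = 3). The SD over libraries exceeded the mean, so on this scale no common shift of messengers was seen beyond the spread of the pull-downs. The reading depends on the scale: rescaled without the ribosomal repeat, the medians were -0.02, -0.73 and -0.62, below Input in each IgG library.

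Most protein-coding genes called carried over had an exon lying over a small RNA gene. There were 68 such genes past the filter, and 30 of them were carried over, against 8 of the other 1010. Rpl27a, a protein of the large ribosomal subunit, stood at 647, 33.1 and 23.6 RPKM against 2.09, and it hosts Snora3. With the exons over Snora3 left out it stood at 1.06, 0.02 and 0.94 RPKM against 0.12. Rpl6 stood at 1914, 313 and 355 RPKM against 16.1, and at 0.33, 0.36 and 0 against 0.43 without the exons over a snoRNA. For both, the remaining exons were at about 1 RPKM or lower in every library. After the same step 32 of the 68 genes still passed the filter and 1 was carried over, with medians of 1.28, -0.21 and 0.52, near those of all protein-coding genes.

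Long non-coding genes were counted in the same groups. With an exon over a small RNA, 21 of 28 were carried over, and without one 3 of 52. Snhg8, the host of Snora24, stood at 446, 52.3 and 39.1 RPKM against 1.62, and at 0.77, 1.04 and 0 against 0.08 with the exons over Snora24 left out. With such exons left out, 3 of 17 genes with other exons still passed the filter, and 2 of these were carried over, 1110038B12Rik and Neat1. Malat1, a nuclear speckle RNA, stood at 97.7, 19.2 and 30.4 RPKM against 17.5. Its exons over the small RNA gene Gm27694 held 87.3%, 85.7% and 90.0% of its IgG signal, and the others stood at 49.8, 11 and 12.2 RPKM against 12.9. Neat1, the scaffold of paraspeckles, stood at 19.9, 2.64 and 4.86 RPKM against 1.55, and at 47.2, 16.8 and 60.7 against 4.28 in the exons clear of small RNA genes. Those clear exons are a small part of Neat1: its exons over small RNA genes held 99.4%, 98.4% and 96.8% of its IgG signal. Over all exons both were above Input in each IgG library, but neither was 2-fold above it in all 3. In the HuR libraries both were higher than in Input too, with Malat1 at 355, 514 and 154 RPKM.

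Without an overlapping small RNA, 8 protein-coding genes were carried over, and 6 of them are described. Rps15, a protein of the small ribosomal subunit, stood at 24.4, 8.46 and 17.8 RPKM against 2.34. The beta globin genes Hbb-bt and Hbb-bs, from red cells in the tissue, stood at 66.9, 26.7 and 37.0 against 12.8 and at 85.7, 39.9 and 40.0 against 18.4. Both globins lay above Input in each IgG library, but Hba-a1, alpha globin from the same cells, stood at 43.4, 14.7 and 4.10 against 18 and lay on both sides of it. The near-identical globin copies share reads. Ptms, Slc25a11 and Eef1g were carried over with mean log2 ratios of 1.59, 1.98 and 1.58.

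The messengers that dominate hepatocytes were neither carried over nor lost. Alb, encoding albumin, stood at 291, 135 and 345 RPKM against 412 in Input. Apoa1, the main protein of high-density lipoprotein, stood at 228, 77.5 and 117 against 156. IgG 2 was the lowest library for both. Of 30 abundant plasma protein genes 0 were carried over and 0 lost, with medians of 0.13, -1.41 and -0.42. The 17 cytochrome P450 genes past the filter gave 0 and 0 as well, with medians of 0.11, -1.47 and -0.47, and so did 25 genes of hepatic metabolism, with 0.44, -0.71 and -0.11. These counts are near the background, since 0.793% of protein-coding genes without an exon over a small RNA were carried over and 0.892% lost. In each IgG library these 3 medians lay below the median of all protein-coding genes. The highest of 5 groups of protein-coding genes by Input level was low as well, at 0.38, -0.99 and -0.31. Input enters both that grouping and the ratio. Hepatic metabolism lay above these values in each library, and plasma proteins and cytochrome P450 below them. Whether level accounts for the low medians was not tested.

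Genes of other functions served as further references. Actb, cytoskeletal actin, stood at 31.5, 4.82 and 23.8 RPKM against 8.34. Elavl1, which encodes HuR, stood at 0.52, 0.03 and 0.01 RPKM against 0.10, too low for a ratio. Of 82 genes of cytosolic ribosomal proteins 31 passed the filter and 16 were carried over, each except Rps15 with an exon over a small RNA gene. Of 31 genes of the respiratory chain and ATP synthase past the filter 0 were carried over and 2 lost, with medians of 0.27, -0.53 and -1.20.

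Markers placed the samples as liver, and apart from the beta globins no cell type marker was called. All 6 hepatocyte markers passed the filter, with 0 carried over and 0 lost, and their summed level was 698, 274 and 602 RPKM against 721. For 9 Kupffer cell markers, macrophages that carry receptors for IgG, the sum was 10.1, 4.59 and 8.65 RPKM against 6.35, and 0 of the 3 past the filter were called. Fc receptor genes summed to 7.67, 2.66 and 2.16 RPKM against 4.03. None of the markers of sinusoidal endothelium, stellate cells and cholangiocytes passed the filter, and of 7 lymphocyte markers 1 did.

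Lars2 was the single protein-coding gene with a large share of the signal, and nearly all of it lay at the gene's end. It encodes the mitochondrial leucyl-tRNA synthetase and stood at 3918, 6201 and 2764 RPKM against 6730 in Input. Its 2 strongest entries are the same last exon with ends a few bases apart, and they held 97.9%, 96.5% and 96.4% of the gene's signal in IgG 1, 2 and 3 and 97.4% in Input. It lay below Input in each IgG library, by less than 2-fold in IgG 1 and IgG 2.

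Loss was rare and mostly in short or low genes. Of the 32 genes lost, 15 were pseudogenes, 9 protein-coding and 4 microRNAs. These were 5.28%, 0.835% and 2.29% of their class past the filter, beside 1.44% of all genes. For 22 of the 32, a library with Input's composition would have given at least 10 reads in every IgG library, and for 3 it would have given fewer than 3 in the smallest. Mir6993 is one of these, listed at 0 in all 3 against 2.40 RPKM, where 2.47, 4.16 and 4.50 reads were due in IgG 1, 2 and 3. So few reads give the loss of such a gene little support in any single library.

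Among lost protein-coding genes with more reads due, Ephx1, a microsomal epoxide hydrolase, stood at 1.95, 1.47 and 1.03 RPKM against 4.60, from 56, 71 and 54 reads. All 3 libraries lay below Input, with a mean log2 ratio of -1.39 ± 0.34 (SD, n = 3). Cox6a1, a subunit of cytochrome c oxidase, stood at 1.62, 0.69 and 0.54 against 5.70. Atp5e, of ATP synthase, stood at 0.36, 0.56 and 0.10 against 1.71. A1bg, a plasma protein, was listed at 0 in IgG 1 and stood at 0.26 and 0.94 in IgG 2 and 3 against 3.49. Some HuR libraries lay above Input for these genes: A1bg stood at 9.06 RPKM in HuR 2, Cox6a1 at 14.5 in HuR 1 and Ephx1 at 8.90 in HuR 2. Spp2, Krt18 and Eci1 were lost with mean log2 ratios of -2.12, -1.71 and -1.65, and Gm20594 and Gm6665 complete the 9.

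Past the filter, longer protein-coding genes had higher ratios than shorter ones in each IgG library. Genes with 4000 or more bases of merged exons had median log2 ratios of 1.23, -0.24 and 0.38 (277 genes), and those under 1000 had 0.29, -0.64 and -0.20 (108 genes). The difference was 0.94, 0.40 and 0.57, a mean of 0.64 ± 0.28 (SD, n = 3). Across genes, which are not independent replicates, Spearman's rho of ratio with length was 0.27, 0.22 and 0.14. The difference was 0.65 without genes over small RNAs. It was 0.08 with no filter on low values, at 0.23, 0.03 and -0.02 in IgG 1, 2 and 3, so the libraries no longer shared a sign. Past the filter, the HuR libraries showed the difference as well, at 1.33, 1.73 and 0.49.

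Abundance and base composition gave weaker patterns. Genes were divided into 5 equal groups by their mean in HuR RIP, which enters neither side of the ratio. The top group minus the bottom group was 0.21, -0.35 and -0.74, with both signs among the libraries (mean -0.29, and -1.06 without IgG 1). Between the highest and the lowest of 5 groups by GC content the difference was 0.12, 0.32 and 0.33 in IgG RIP and -0.97, -0.78 and -1.30 in HuR RIP. The IgG and HuR values of the GC difference did not overlap and have opposite signs. It was added after the data were seen and was not tested.

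**Figure D3:**
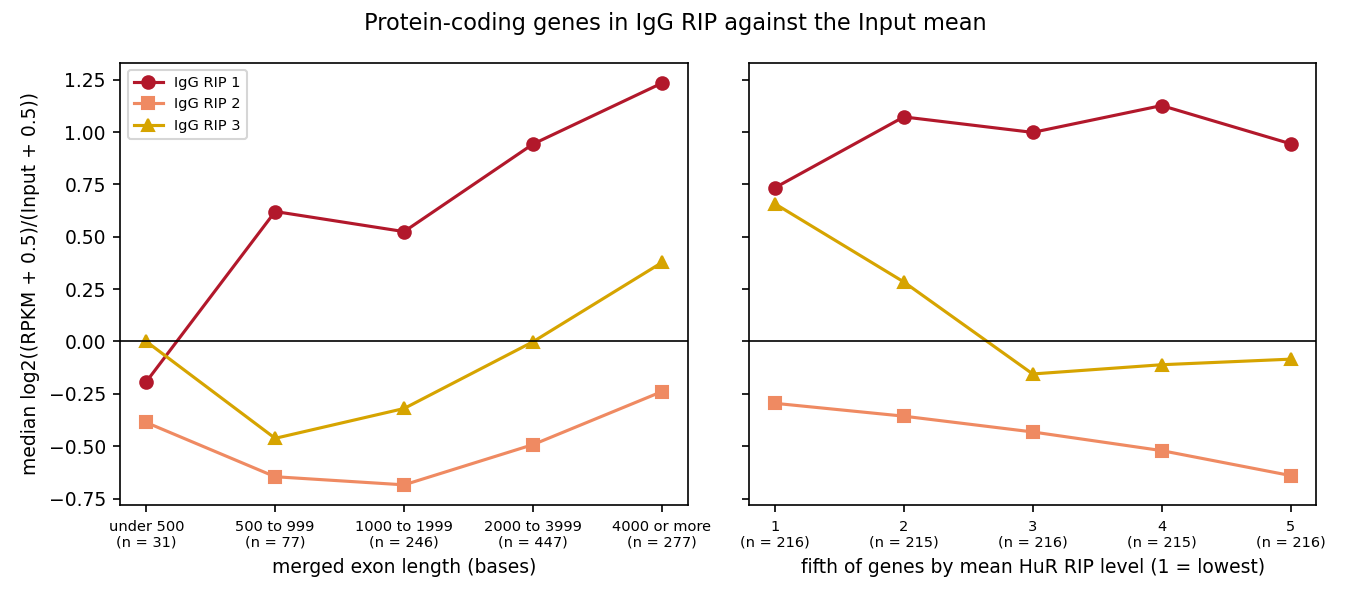
Median log2 ratio of protein-coding genes past the filter to the Input mean (vertical axis) by merged exon length in bases, 1 line per library. In each IgG library the bin of 4000 or more lies above the bins under 1000.

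Levels of protein-coding genes followed Input to a different degree in each library. Spearman's rho of level with Input across the 1078 genes was 0.61, 0.69 and 0.33 in IgG 1, 2 and 3, as a description over genes that share libraries. IgG 3, the deepest library, was the least like Input and the other IgG libraries (0.32 with IgG 1 and 0.37 with IgG 2).

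IgG 3 also covered fewer genes and exons. For genes where a library with Input's composition would have given at least 10 reads, 74 of 4575 (1.62%) were listed at 0 in IgG 1, 569 of 6226 (9.14%) in IgG 2 and 1969 of 6478 (30.4%) in IgG 3. At 30 reads or more these were 2 of 1729, 36 of 2898 and 515 of 3097 (16.6%). The share of genes not seen thus went against depth, since the deepest library missed the most. In 919 genes with several exons, the median share of a gene's signal in its strongest exon was 43.6%, 42.3% and 60.7%, against 33% in Input. The median share of exons above 0 was 66.7%, 54.2% and 30% against 93.8%. Input is a mean of 3 libraries and so covers more exons than 1 library would.

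Few genes were missing from all pull-downs. Of 4575 protein-coding genes with at least 10 reads due in each library, 10 were at 0 in all 3: Gm6665, Dhrs11, Psma1, Yif1b, Acot3, Commd4, Hdac2, Fdxacb1, Klf2 and Wdr77. Psma1 encodes a proteasome subunit and Hdac2 a histone deacetylase, and 8 of these 10 were due fewer than 15 reads in the smallest library. In the other direction 65 of 4776 protein-coding genes listed at 0 in Input were above 0 in all 3 IgG libraries, and so were 93 non-coding genes, 15 of them snoRNAs.

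**Figure D4:**
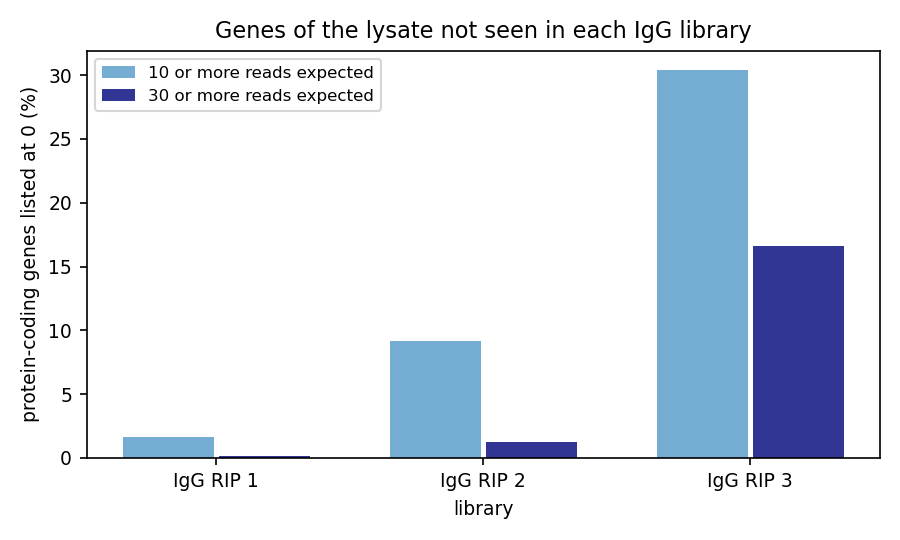
Percentage of protein-coding genes listed at 0 in each IgG library, among genes for which a library with Input's composition would have given at least 10 reads (light bars) or 30 reads (dark bars). The values are 1.62%, 9.14% and 30.4% for light bars, highest in IgG 3.

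The IgG pull-downs could be tested against the HuR pull-downs, since Input cancels from that difference. An exact two-sided permutation test over 3 against 3 libraries cannot go below p = 0.1, and 13 measures (12 class shares and the length difference) were adjusted together by the Benjamini-Hochberg method. None passed an adjusted threshold, as the design could not reach 0.05. C/D snoRNA had a log2 share 2.19 higher in IgG than in HuR RIP, with groups that did not overlap (exact permutation p = 0.1, adjusted p = 0.557). Pseudogenes had a log2 share of -1.89 ± 0.44 in IgG and 0.11 ± 0.49 in HuR RIP (SD, n = 3 each), also without overlap (exact permutation p = 0.1, adjusted p = 0.557). For H/ACA snoRNA the difference was 0.81, with groups that overlapped (exact permutation p = 0.6), and it turned to -0.14 without IgG 1. For snRNA it was -1.23 (exact permutation p = 0.5). The length difference was 0.55 smaller on the log2 scale in IgG than in HuR RIP (exact permutation p = 0.3). The shares of snoRNA, scaRNA and snRNA lay above Input in each HuR library too. For C/D snoRNA the HuR shares were 1.43%, 1.44% and 0.353% against 0.295% in Input, so HuR 3 lay close to Input. With a smallest p of 0.1, the test could not separate the kinds of pull-down.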

How the data were processed

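RNA immunoprecipitation sequencing of mouse liver gave 3 IgG RIP, 3 HuR RIP and 3 Input libraries, made with the Ion Total RNA-Seq Kit v2 per the labels' protocols. Bowtie2, featureCounts and mm10 are named, without versions, per the submitters' processing notes. The authors deposited 1 table of RPKM per exon and library, the mean RPKM of Input, and log2 fold ratios of RPKM plus 1 over Input plus 1. The deposited p-values and q-values (2 columns) and fold columns were not used as results, and 0 columns of sample values were left unused. Decimal marks were missing from deposited numbers at or over 1. Each number was restored from its digits against the authors' fold columns, and 138761 of 138826 distinct lines matched in all 6.

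Exon values were multiplied by length, summed per gene and divided by merged exon length from GENCODE M21, which holds 98.1% of the listed exons. Reads shared by overlapping exons had been split. Between 80.9% and 83.3% of gene sums in IgG libraries were whole reads within 0.05. Ratios used a pseudocount of 0.5 RPKM and a filter of 1 RPKM. As Input has no replicate, nothing against it was tested. The only test was an exact permutation over libraries of IgG against HuR RIP. Same-numbered libraries deviated together over 2219 genes (Pearson's r = 0.20, 0.11 and 0.13 for numbers 1, 2 and 3, each over 0.1; -0.08 and 0.01 with HuR 2 and HuR 3 exchanged), so a sign-flip test over the 3 pairs was the alternative with pairing. Restoration and calls were tested on simulated data. Alternatives covered pseudocount, filter, scaling, fold and each library left out.

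Named genes were the 10 largest mean log2 ratios per direction, for protein-coding and non-coding genes, without predicted, Rik and pseudogene names, up to 4 members per gene list by Input level, and a fixed set of references. Others named were chosen after their values were seen, and not every gene chosen is named. The members, lists and comparisons were chosen with earlier results of these data known. Scripts used Python 3.11.15 with scipy 1.17.1, pandas 2.3.3 and numpy 2.4.6, and matplotlib 3.10.9 for plots.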

Additional observations from a re-analysis of the deposited data

How the results depend on the processing

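Input has no replicate and unknown depth, so each ratio carries the IgG spread only, and genes with few reads limit the microRNA counts and the lost genes. The count of 458 carried-over genes was 253 at 4-fold and 454 to 727 with a library left out, and 8 among protein-coding genes without an exon over a small RNA. The 32 lost genes became 203 with no filter, 4 at 5 RPKM, 486 rescaled without the ribosomal repeat, 49 centred at the protein-coding median, 13 at 4-fold, 9 among protein-coding genes without such an exon, and 42 to 142 with a library left out. The length difference of 0.64 was 0.080 with no filter and 1.07 rescaled. The abundance difference of -0.29 was -1.07 at 5 RPKM, -1.27 with groups by Input, and -1.06 to -0.22 with a library left out.

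With the repeat left out of the shares, mean log2 ratios to Input became 0.40 for other small structural RNA and -0.66 for microRNA. They became -0.80 for protein-coding and -1.12 for pseudogenes, and every class shifted alike. Predicted microRNA genes held 6.14% of the Input signal, out of 6.37% for all microRNA genes. Lars2 held 9.86%, out of 14.3% for all protein-coding genes. With the repeat kept, the mean log2 ratio was 0.88 ± 0.51 (SD, n = 3) for named microRNA genes. It was 0.17 ± 0.74 for protein-coding genes other than Lars2 and without an exon over a small RNA. The class values thus do not describe these genes. The snoRNA count of 230 ranged from 152 at 4-fold to 273, and the 49 microRNA genes from 16 at 5 RPKM to 61. Of 426 checks of named genes, 389 stayed within the spread of the libraries and 37 moved. A change of sign was counted only for genes called carried over or lost, and 0 of these changed sign. Changes of sign among the other named genes were not counted.

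In IgG against HuR RIP, 7 of 91 checks changed sign. With a library left out, H/ACA snoRNA ranged from -0.14 (without IgG 1) to 1.43, snoRNA without a family name from -0.22 (without IgG 1; -0.06 without HuR 3) to 1.27, other small structural RNA from -0.14 (without HuR 3; -0.05 without IgG 2) upwards, and long non-coding RNA from -1.10 to 0.17 (without HuR 2; 0.09 without IgG 3). The cause was not tested. Pairing by replicate number as a block left C/D snoRNA at 2.19 and pseudogenes at -2.00 (exact sign-flip p = 0.25 each, the smallest 3 pairs can give) and changed no call.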

Other observations

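SnoRNA genes without a family name could be divided by the boxes of their sequence, searched on the transcript strand of GENCODE M21. Of 412 such genes with a sequence, 91 held TGATGA within 20 bases of the start and CTGA within 20 bases of the end, 143 held ACA ending 3 bases before the end, 174 held neither and 4 held both. Among those past the filter, 32 of 48, 50 of 76 and 34 of 53 of the first 3 kinds were carried over in IgG RIP. The shares were 66.7%, 65.8% and 64.2%, so they differed little by box. The same letters were found in 63 of 98 named C/D genes and 32 of 39 H/ACA genes, and in 0 and 2 of 548 snRNA genes. A match describes letters, not a working box.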
